A study of Mus musculus with 12 samples.

Results

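The immediate early and heat shock genes described here were 10 genes, Egr1, Egr3, Fos, Junb, Atf3, Ier2, Hspa1a, Hspa1b, Dnajb1 and Hsph1, of 19057 genes named on the array. They were taken as all probes that the platform annotation assigns to these symbols, which gave 15 probes. Of these, 11 probes of 9 genes were detected on at least 4 of the 12 arrays and were tested. Ier2, with its single probe, was not among them.

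RNA came from lower abdominal muscle of male FVB/N mice aged 1 month and was measured on Illumina mouse bead arrays, which hybridise biotin-labelled cRNA to short gene probes and read 1 colour. The 3 groups held 4 arrays each. Wild type (WT) mice were the controls, and AromhumL and AromhumH mice carried a humanized aromatase transgene, with human aromatase at a lower level in AromhumL and a higher level in AromhumH per the labels. Aromatase converts androgens to oestrogens, and the series title names this shift as its question. All 3 groups shared strain, sex, age and tissue. The labels give neither the promoter that drives the transgene nor whether each replicate was a separate animal. P-values therefore reflect how far these arrays lie apart, and that distance may be technical. The whole muscle was extracted, so fewer cells of a type and less RNA per cell cannot be told apart.

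Immediate early genes are switched on within minutes of a stimulus, without new protein synthesis, through factors already present on their promoters, such as serum response factor and CREB. In muscle they are known to respond to contraction, stretch and growth factors, and most encode transcription factors of the EGR, FOS, JUN and ATF families. Heat shock genes are driven mainly by heat shock factor HSF1, which binds inverted repeats of the letters GAA, and their products are chaperones that hold or refold proteins under heat, oxidative or mechanical stress.

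Promoter sequences, 250 bases before to 50 after the transcription start, were available from RefSeq on mouse build GRCm38.p6 for 7 of the 10 genes. The near-identical pair Hspa1a and Hspa1b is shown because 1 probe of Hspa1b, and 0 of Hspa1a, was called changed. The promoters lie on the minus strand of chromosome 17, at chr17:34972107-34972406 for Hspa1a and chr17:34959189-34959488 for Hspa1b. They shared 98.67% of 300 bases. Capitals mark the 4 bases that differ, C44T, T47C, T249G and C276T, with the Hspa1a base first and positions counted from 1 at the 5′ end.
Hspa1a: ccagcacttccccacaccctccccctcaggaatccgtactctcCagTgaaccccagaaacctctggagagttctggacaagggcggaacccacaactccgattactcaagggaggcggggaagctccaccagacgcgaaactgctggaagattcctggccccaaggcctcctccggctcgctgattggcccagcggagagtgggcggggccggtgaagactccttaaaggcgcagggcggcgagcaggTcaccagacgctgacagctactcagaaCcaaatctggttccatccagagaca
Hspa1b: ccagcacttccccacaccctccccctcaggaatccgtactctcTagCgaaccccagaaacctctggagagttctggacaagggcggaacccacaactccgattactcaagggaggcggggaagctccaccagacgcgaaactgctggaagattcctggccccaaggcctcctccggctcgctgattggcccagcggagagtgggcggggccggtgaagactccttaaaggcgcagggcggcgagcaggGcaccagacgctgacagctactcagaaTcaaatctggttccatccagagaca
Both hold GAAGATTC at position −104 from the start, a match to the heat shock element of 2 units, GAANNTTC, which 7.86% of 32851 promoters of the same length hold on either strand.

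The promoters of Hsph1 and Fos are shown as the heat shock and immediate early examples with motif matches. That of Hsph1 lies at chr5:149636287-149636586 on the minus strand. Capitals mark a heat shock element of 3 units (GAA, TTC and GAA, or TTC, GAA and TTC, each 2 bases apart). It was searched on both strands, overlaps a 2-unit match and is held by 0.603% of promoters. The match begins at position 37 after the start, and at 16 after the start in another promoter record of Hsph1.
Hsph1: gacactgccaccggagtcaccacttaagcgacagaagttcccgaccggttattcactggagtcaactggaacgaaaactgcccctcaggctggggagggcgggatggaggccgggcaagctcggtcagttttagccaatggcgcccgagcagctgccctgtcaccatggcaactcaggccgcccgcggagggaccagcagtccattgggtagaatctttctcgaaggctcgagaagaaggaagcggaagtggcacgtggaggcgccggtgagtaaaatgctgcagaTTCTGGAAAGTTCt
The Fos promoter lies at chr12:85473640-85473939 on the plus strand. Capitals mark the CREB-site core TGACG, searched on both strands and held by 20.8% of promoters, at positions −129 and −66 from the start.
Fos: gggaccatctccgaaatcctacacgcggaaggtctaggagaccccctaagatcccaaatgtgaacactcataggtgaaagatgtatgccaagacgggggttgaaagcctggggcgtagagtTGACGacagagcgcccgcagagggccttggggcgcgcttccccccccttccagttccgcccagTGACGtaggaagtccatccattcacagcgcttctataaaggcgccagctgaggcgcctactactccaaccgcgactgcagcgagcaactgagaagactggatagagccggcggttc
Of 9 promoter records of the members, 2 held the 3-unit heat shock element, each of them of Hsph1. The serum response factor site (CArG box, CCWWWWWWGG, W being A or T) was found in 0 of 9, against 1.63% of all promoters. The AP-1 site TGANTCA was found in 0 of 9, against 7.81%. Bases farther from the start were not searched. A motif match describes letters only.

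Between 17198 and 18867 of 45281 probes were detected per array, at a detection p below 0.05. Array brightness, the mean raw intensity of an array, was 317.9 ± 49.9 for WT, 259.0 ± 25.1 for AromhumL and 334.7 ± 31.6 for AromhumH (SD, n = 4). It was higher in AromhumH than in AromhumL (two-sided exact permutation p = 0.0286, the smallest that 4 against 4 arrays allow). Every AromhumH array (296.1 to 373.2) was brighter than every AromhumL array (221.6 to 273.9). With brightness as a covariate, brightness and group therefore cannot be told apart in that comparison. The exact permutation p was 0.629 for AromhumH versus WT and 0.114 for AromhumL versus WT. The mean log2 level of 8 skeletal muscle markers ran from 14.22 to 14.34 over the 12 arrays. Markers of mesothelium, the lining of the abdominal wall, ran from 8.18 to 8.94 in AromhumH, above the 6.64 to 7.72 of AromhumL and the 6.44 to 7.25 of WT. That range rests on 4 of 5 listed markers, 3 of which rose in AromhumH versus WT. Wt1, a defining mesothelial marker, was not analysed here. Of 3 measured epithelial and skin markers out of 5, Krt8 and Krt18 also rose in AromhumH versus WT. The mean of these 3 ran from 7.33 to 8.33 in AromhumH, 5.56 to 7.50 in AromhumL and 5.63 to 6.45 in WT.

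Levels below are log2 intensities after background correction and quantile normalization with the neqc function of limma. Changes are differences of group means on that scale, with the standard error (SE) and adjusted p of limma over all 19004 probes fitted. A probe is called changed at an adjusted p under 0.05. Arrays are listed in the order of replicates 1 to 4, a number that only names an array.

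Among the immediate early genes, Egr1 encodes a zinc finger transcription factor and lies on chromosome 18. Its log2 level was 11.97, 11.29, 10.87 and 11.71 in WT, 11.88, 11.67, 11.90 and 11.50 in AromhumL, and 10.81, 12.19, 10.97 and 11.58 in AromhumH. Its highest and its lowest level over all 12 arrays both fell in AromhumH, and the 3 groups overlapped. By limma, AromhumL minus WT was 0.28 (SE 0.273, adjusted p = 0.800) and AromhumH minus WT was −0.07 (adjusted p = 0.931). AromhumH minus AromhumL was −0.35 (adjusted p = 0.463).

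Egr3, a relative of Egr1 needed for muscle spindles, the stretch sensors of muscle, lies on chromosome 14 and has 2 probes. Probe 1 (ILMN_1227494) was detected on all 12 arrays, at 7.33, 6.07, 5.31 and 5.47 in WT, 6.78, 6.54, 7.25 and 6.25 in AromhumL, and 5.02, 5.99, 5.06 and 5.57 in AromhumH (log2). Every AromhumL array lay above every AromhumH array, and the WT arrays spanned both. In raw units the same probe read 123.2 to 201.4 in AromhumL and 101.4 to 138.4 in AromhumH, where the groups overlapped.

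Egr3 probe 1 was 2.45-fold lower in AromhumH than in AromhumL, a log2 change of −1.29 (SE 0.358, 95% interval −2.05 to −0.53). Its adjusted p of 0.0501 by limma missed the threshold. It became 0.0467 with 1 probe a gene and 0.0149 when only these 2 groups were fitted. Without WT replicate 1, 3 or 4 it was 0.0120, 0.0436 and 0.0468, and with 1 array of the groups compared left out it lay between 0.0619 and 0.122. With array brightness as a covariate the change was −0.39 (adjusted p = 0.794). Against WT, the change was 0.66 (SE 0.358, adjusted p = 0.664) in AromhumL and −0.63 (adjusted p = 0.416) in AromhumH. Both moved with WT 1, the highest array: without it they were 1.09 and −0.21. With array brightness as a covariate, AromhumL minus WT was −0.042 for Egr3 probe 1.

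Egr3 probe 2 (ILMN_2653543) was detected on 4 of 12 arrays, WT 4, AromhumL 2, AromhumH 2 and AromhumH 3. Its log2 level was 4.62, 4.49, 4.56 and 4.74 in WT, 4.68, 4.96, 4.54 and 4.68 in AromhumL, and 4.59, 4.71, 4.88 and 4.67 in AromhumH. These values lie near the detection limit and overlapped in all groups. AromhumH minus AromhumL was −0.00 (SE 0.128, adjusted p = 0.998 by limma, 95% interval −0.27 to 0.27).

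The difference between the 2 Egr3 probes was tested over arrays, a test added after the values were seen and adjusted over 6 comparisons of the Egr3 and Hspa1b probe pairs. The change of probe 1 minus that of probe 2 was −1.29 in AromhumH versus AromhumL (two-sided exact permutation p = 0.0286, adjusted p = 0.0571). The same difference was 0.55 in AromhumL versus WT (exact permutation p = 0.286) and −0.74 in AromhumH versus WT (exact permutation p = 0.2). Probe 2 lay near the detection limit, above background on 1 WT, 1 AromhumL and 2 AromhumH arrays, and could hardly show a fall. The difference of −1.29 thus restates the change of probe 1, and its p is the smallest these group sizes allow. Whether the Egr3 probes disagree cannot be decided by this test.

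**Figure D1:**
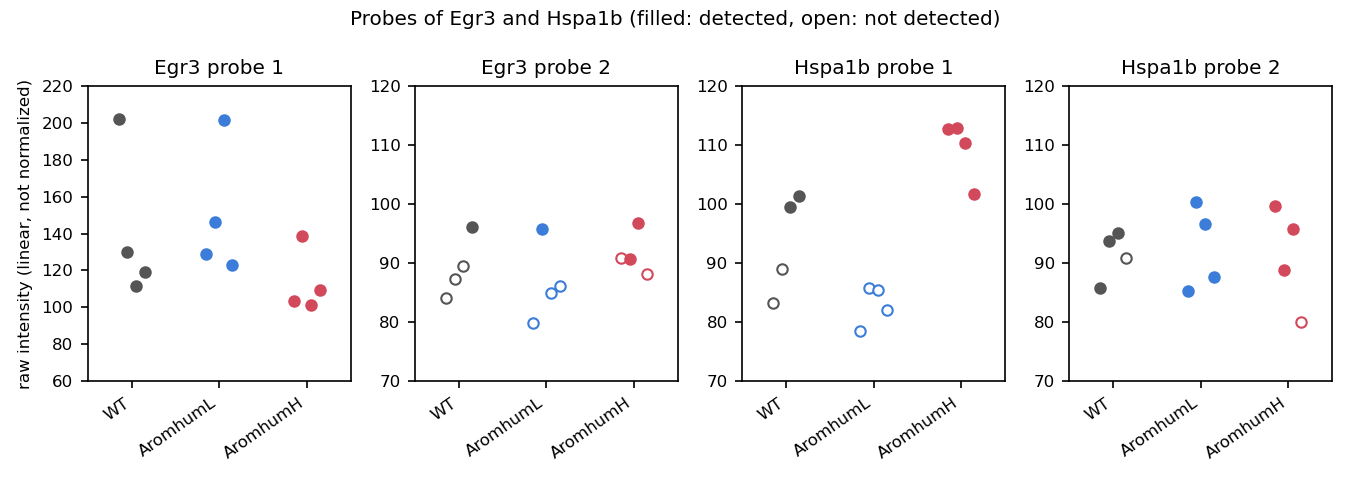
Raw intensity (linear, not normalized) of both probes of Egr3 and of Hspa1b on each array, by group; filled points were detected and open points were not. The y axes differ in range and do not start at 0. Hspa1b probe 1 sits between 101.6 and 112.8 in AromhumH and at or below 85.8 in AromhumL, while probe 2 overlaps in all groups.

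Fos, the partner of JUN proteins in the AP-1 transcription factor, lies on chromosome 12 (promoter above). Its log2 level was 11.33, 11.50, 10.99 and 11.99 in WT, 11.04, 11.35, 11.35 and 11.43 in AromhumL, and 10.07, 11.54, 10.42 and 10.93 in AromhumH. In AromhumH, 3 arrays lay below every WT array, and AromhumH 2 was the second highest of all 12. The change in AromhumH versus WT was −0.71 (SE 0.264, 95% interval −1.27 to −0.15), which did not pass (adjusted p = 0.203 by limma). AromhumL versus WT gave −0.16 (adjusted p = 0.892) and AromhumH versus AromhumL gave −0.55 (adjusted p = 0.211).

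Junb encodes an AP-1 subunit that in mouse muscle is known to maintain fibre size, and lies on chromosome 8. Probe 1 read 8.06, 7.93, 7.43 and 8.01 in WT, 7.71, 8.39, 7.41 and 8.12 in AromhumL, and 8.14, 8.15, 7.20 and 8.69 in AromhumH (log2). The lowest and highest arrays were again both AromhumH. Its changes were 0.05, 0.18 and 0.14 in AromhumL versus WT, AromhumH versus WT and AromhumH versus AromhumL, with adjusted p of 0.975, 0.800 and 0.806 by limma. The 95% interval in AromhumH versus WT was −0.39 to 0.76. Junb probe 2 was detected on 0 arrays.

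Atf3, a stress-induced repressor of the ATF/CREB family on chromosome 1, read 7.69, 8.34, 6.31 and 7.40 in WT, 7.54, 7.26, 7.77 and 6.63 in AromhumL, and 6.54, 7.37, 7.93 and 7.91 in AromhumH (log2). Both the highest and the lowest of the 12 arrays were WT. AromhumH minus WT was 0.00 (SE 0.379, adjusted p = 0.998 by limma), with a wide 95% interval of −0.80 to 0.81. It was −0.13 (adjusted p = 0.945) in AromhumL versus WT and 0.14 (adjusted p = 0.866) in AromhumH versus AromhumL. Ier2, a short-lived nuclear protein gene on chromosome 8, was above background on 1 array, AromhumH 2, and its raw intensity ran from 76.7 to 91.7.

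**Figure D2:**
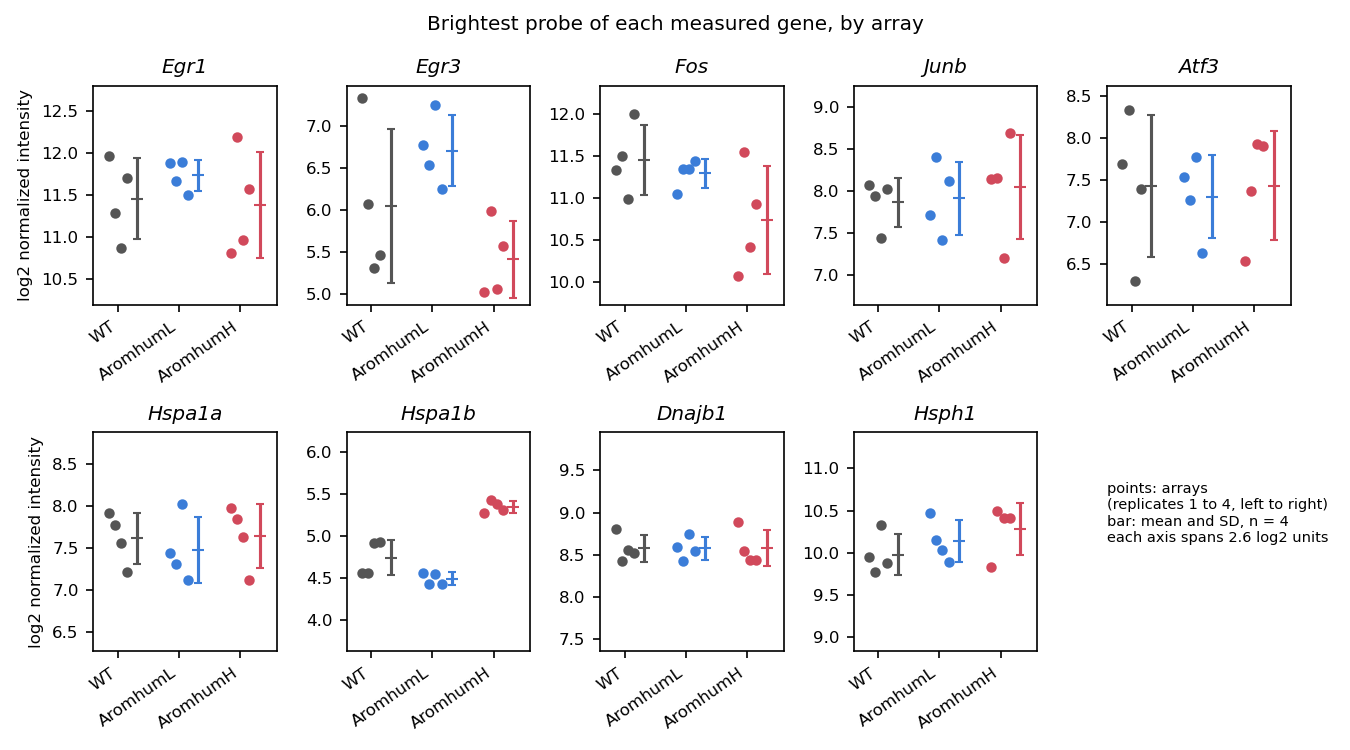
Log2 normalized intensity of the brightest probe of each of the 9 measured genes on every array (points, replicates 1 to 4 from left to right), with group mean and SD (bars, n = 4); each y axis spans 2.6 log2 units and does not start at 0. Hspa1b is higher on every AromhumH array than on any other, and Egr3 is higher on every AromhumL array than on any AromhumH array.

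Among the heat shock genes, Hspa1b encodes one of the pair of stress-inducible HSP70 chaperones and lies on chromosome 17. Probe 1 (ILMN_2498263) was detected on all 4 AromhumH arrays, 2 WT arrays and 0 AromhumL arrays. Its log2 level was 5.27, 5.44, 5.39 and 5.31 in AromhumH, 4.57, 4.57, 4.92 and 4.93 in WT, and 4.56, 4.43, 4.56 and 4.44 in AromhumL. The probe therefore passed the filter of 4 detected arrays only through AromhumH, the group where it was high, so its calls describe these arrays and are not independent of that filter. AromhumH overlapped neither other group, and the lowest WT array lay just above the highest AromhumL array. In raw units AromhumH read 112.8, 112.8, 110.3 and 101.6, against 83.2, 89.0, 99.5 and 101.3 in WT and 78.4 to 85.8 in AromhumL. The lowest raw AromhumH array thus lay just above the highest WT array, and WT overlapped AromhumL.

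Hspa1b probe 1 was called higher in AromhumH versus WT, with a log2 change of 0.61 (SE 0.127) or 1.52-fold, at an adjusted p of 0.0429 by limma. That fold is taken over WT arrays of which 2 of 4 were above background. Without the detection filter the adjusted p was 0.0701. The probe was also called higher in AromhumH versus AromhumL, by 0.85 (SE 0.127, adjusted p = 0.00878, and 0.0192 without the filter). Since it was not above background on any AromhumL array, that difference is stated as at least 1.57-fold, against the lowest signal detected there. The change in AromhumL versus WT was −0.25 (adjusted p = 0.664 by limma) and was not called. No minimum fold is given for it, since the probe was above background on 2 of 4 WT arrays and on no AromhumL array. The mesothelial and epithelial marker levels given above were also higher in AromhumH. In AromhumH versus AromhumL, 4 of 4 erythroid markers (median 0.75) and 5 of 5 fibroblast markers (median 0.38) were above 0, and 0 passed the test. In AromhumH versus WT, the erythroid and fibroblast medians were 0.07 and 0.01. Endothelial markers in AromhumH were above 0 for 3 of 3 against AromhumL (median 0.27) and 2 of 3 against WT (median 0.12). Macrophage markers were above 0 for 5 of 6 (median 0.11) and 6 of 6 (median 0.23). Adipocyte markers were above 0 for 2 of 4 (median −0.17) and 0 of 4 (median −1.05). Of these 3 lists, 0 markers passed the test. The mean erythroid level was 9.36 and 8.87 in WT 3 and WT 4. It was 8.16 and 8.11 in WT 1 and WT 2, the split also seen for Hspa1b probe 1. Other arrays ran the other way: the erythroid level was 7.91 in AromhumH 1 and 8.41 in AromhumL 1. There Hspa1b probe 1 read 5.27 and 4.56. The part of these cells in the Hspa1b change was not tested.

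The call of Hspa1b probe 1 in AromhumH versus WT was lost, with the same direction, under 7 of the 9 alternative settings that kept the probe. The adjusted p was then 0.0910 on the deposited processed values, where the change was 0.11, and 0.0846 without background correction, where it was 0.18. At an offset of 50 the change was 0.30 (adjusted p = 0.0603). The WT arrays on which the probe was detected, WT 3 and WT 4, had mean raw intensities of 359.8 and 361.7, against 267.4 and 282.6 for WT 1 and WT 2. With array brightness as a covariate the change in AromhumH versus WT was 0.57 (adjusted p = 0.0617). Left out 1 array at a time, it passed 4 of 12 times, without WT 3, AromhumH 3, AromhumL 1 or AromhumL 3. Without WT 1, WT 2, WT 4, AromhumH 1, AromhumH 2, AromhumH 4, AromhumL 2 or AromhumL 4, the adjusted p lay between 0.0503 and 0.130. AromhumH versus AromhumL passed in 12 of 12, and with array brightness as a covariate its change was 0.69 (adjusted p = 0.386).

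Hspa1b probe 2 (ILMN_2530672) was detected on 3 WT, 4 AromhumL and 3 AromhumH arrays. Its log2 level was 4.71, 4.80, 4.77 and 4.55 in WT, 5.13, 5.20, 5.15 and 4.80 in AromhumL, and 4.90, 4.64, 4.84 and 4.33 in AromhumH. AromhumL was the group with the highest values, and it overlapped both others. AromhumH minus WT was −0.03 (SE 0.147, 95% interval −0.34 to 0.28, adjusted p = 0.954 by limma). The change was 0.36 (adjusted p = 0.653) in AromhumL versus WT and −0.39 (adjusted p = 0.119) in AromhumH versus AromhumL.

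Probe 1 minus probe 2 of Hspa1b differed by 0.63 between AromhumH and WT (two-sided exact permutation p = 0.0571, adjusted p = 0.0857). The difference against AromhumL is not given, since probe 1 was not above background there. Both probes read at most 112.8 raw units, near background. The Hspa1a and Hspa1b transcripts are near-identical, probe sequences were not used here, and which of the pair each probe reads was not tested.

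Hspa1a, the other inducible HSP70 gene on chromosome 17, has 3 probes. Probe 1 was detected on all arrays, at 7.91, 7.77, 7.56 and 7.21 in WT, 7.44, 7.30, 8.02 and 7.12 in AromhumL, and 7.98, 7.84, 7.62 and 7.12 in AromhumH (log2). The groups overlapped throughout. AromhumH minus WT was 0.03 (SE 0.219, 95% interval −0.44 to 0.49, adjusted p = 0.973 by limma). The other changes were −0.14 (adjusted p = 0.884) in AromhumL versus WT and 0.17 (adjusted p = 0.682) in AromhumH versus AromhumL. Probe 2 was detected on 3 arrays, WT 3, WT 4 and AromhumH 1, and probe 3 on 0.

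Dnajb1, the HSP40 co-chaperone that delivers clients to HSP70, lies on chromosome 8 and varied least among the members detected on all arrays. It read 8.80, 8.42, 8.55 and 8.52 in WT, 8.59, 8.42, 8.75 and 8.55 in AromhumL, and 8.88, 8.54, 8.43 and 8.43 in AromhumH (log2). The group means were 8.57 ± 0.16, 8.58 ± 0.14 and 8.57 ± 0.21 (SD, n = 4). AromhumH minus WT had a 95% interval of −0.30 to 0.30 (limma, adjusted p = 0.998).

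Hsph1 encodes HSP110, the nucleotide exchange factor of HSP70, and lies on chromosome 5 (promoter above). It read 9.94, 9.76, 10.32 and 9.88 in WT, 10.47, 10.15, 10.03 and 9.88 in AromhumL, and 9.82, 10.49, 10.41 and 10.41 in AromhumH (log2). AromhumH 1 lay below the other 3 arrays of its group, among the lowest WT values. By limma, AromhumH minus WT was 0.31 (SE 0.178, adjusted p = 0.429), and 0.46 for Hsph1 without AromhumH 1. The change was 0.16 (adjusted p = 0.828) in AromhumL versus WT and 0.15 (adjusted p = 0.650) in AromhumH versus AromhumL.

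**Figure D3:**
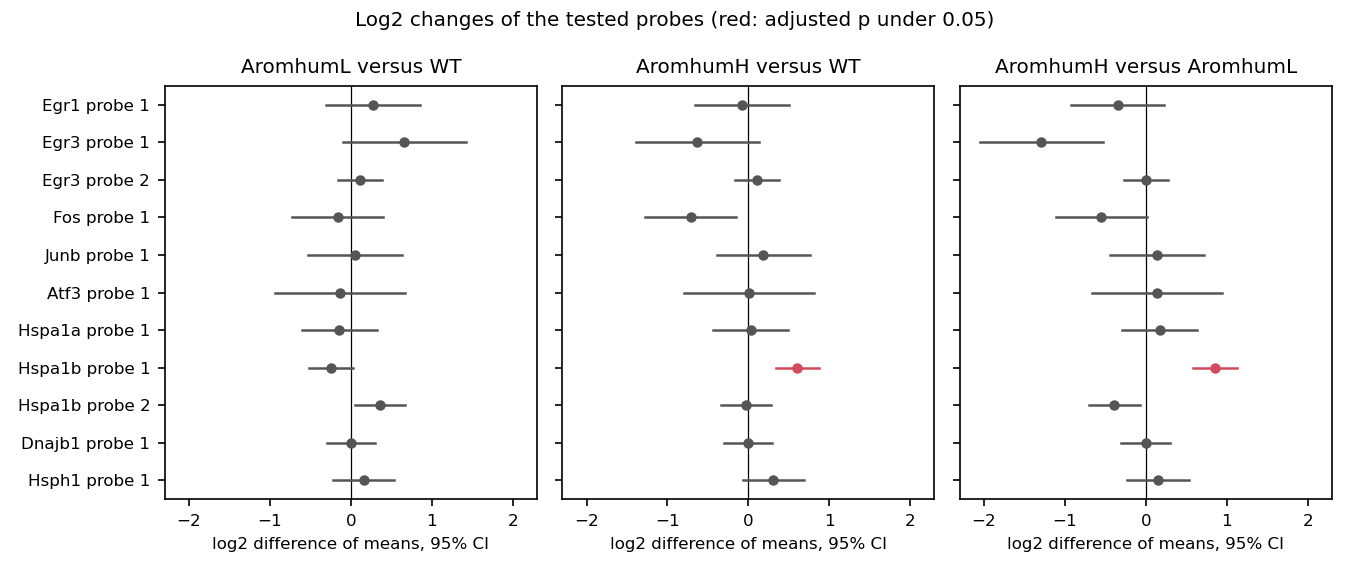
Log2 difference of group means (points) with its 95% interval (lines, n = 4 arrays a group) for the 11 tested probes in each comparison; red marks an adjusted p under 0.05. Only Hspa1b probe 1 is red, in AromhumH versus WT and in AromhumH versus AromhumL.

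Over all members, 1 of 11 tested probes was called higher and 0 lower in AromhumH versus WT, where 0.752% of all 19004 probes were called, 0.553% higher and 0.2% lower. That probe, Hspa1b probe 1, passed the filter only through AromhumH. The groups did not overlap for 1 of 11 probes, which was higher, against 8.07% of all probes, 4.45% higher and 3.62% lower. An unadjusted p under 0.05 was found for 2 of 11, against 15.8% of all probes. The members' median change was 0.00 and that of all probes −0.01. Of the 11, 6 changes were above 0.

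In AromhumL versus WT, 0 of 11 probes were called, where 0% of all probes were called by limma, and 1 of 11 had an unadjusted p under 0.05, against 7.64% of all probes. The smallest adjusted p of any probe on the array was 0.653. The groups did not overlap for 1 of 11 probes, Hspa1b probe 1, which was lower, against 3.9% of all probes, 2.17% higher and 1.73% lower. The members' median change was 0.05, beside −0.00 for all probes.

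In AromhumH versus AromhumL, 1 of 11 probes, Hspa1b probe 1, was called higher and 0 lower, against 4.74% of all probes, 2.86% higher and 1.88% lower. The groups did not overlap for 2 of 11, Hspa1b probe 1, which was higher, and Egr3 probe 1, which was lower, against 14.9% of all probes, 7.15% higher and 7.76% lower. An unadjusted p under 0.05 was found for 3 of 11, against 24.3% of all probes. The median change was −0.00 for the members and −0.01 for all probes. The 3 comparisons share samples, so their calls are not independent.

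The genes differed in how far arrays of 1 group lay apart. The standard deviation within groups was 0.68 for Atf3, 0.64 for Egr3 probe 1, 0.47 for Egr1, 0.47 for Junb and 0.45 for Fos, against a median of 0.23 for all tested probes. Set among the 1000 probes closest in level, these ranked at percentiles 98.2, 97.6, 97.3, 94.3 and 96.9. Egr3 probe 2, near the detection limit, went the other way, at 0.14 and percentile 9.1. The spread of the heat shock genes was smaller, 0.36 for Hspa1a, 0.27 for Hsph1 and 0.17 for Dnajb1, at percentiles 85.1, 74.8 and 21.7. Hspa1b probe 1, at 0.13 and percentile 3.4, had one of the smallest spreads at its level. By group it was 0.21 in WT, 0.07 in AromhumL and 0.07 in AromhumH. The pooled value and its SE thus include AromhumL arrays that were not above background, and lie below the WT spread. Hspa1b probe 2 had 0.19, at percentile 30.5. These are descriptions with no test. All 3 comparisons of a gene carry its spread: the SE was 0.379 for Atf3 and 0.127 for Hspa1b probe 1, against a median of 0.16.

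**Figure D4:**
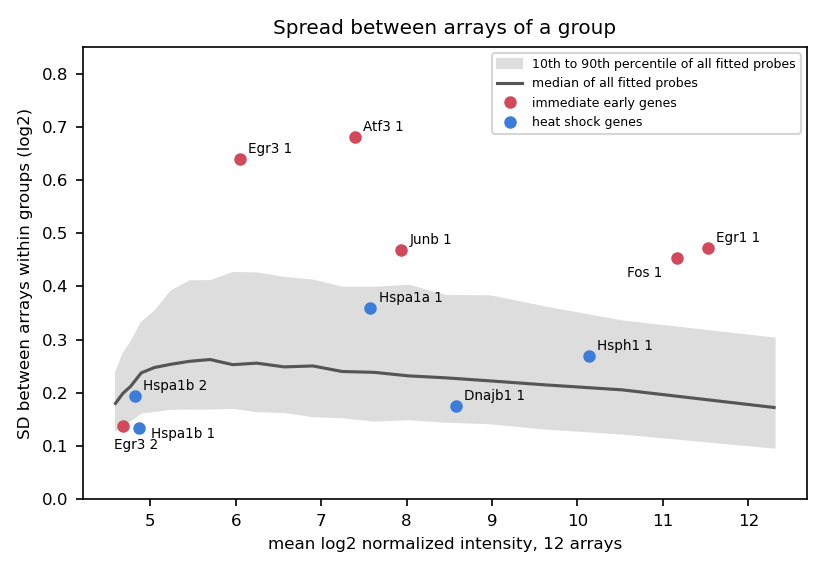
Standard deviation between arrays within groups (log2, y axis) against mean log2 normalized intensity over 12 arrays (x axis) for each tested probe; numbers after symbols are probe numbers, the line is the median of all fitted probes at that level and the band their 10th to 90th percentile. Atf3, Egr3 probe 1, Junb, Fos and Egr1 lie above the band, at 0.45 to 0.68.

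AromhumH 1 was the lowest of all 12 arrays for Egr1, Egr3 and Fos, AromhumH 3 for Junb and WT 3 for Atf3. The highest array differed for each of these genes. It was AromhumH 2 for Egr1, WT 1 for Egr3, WT 4 for Fos, AromhumH 4 for Junb and WT 2 for Atf3. Counted from the highest, AromhumH 2 ranked 2 for Fos, 3 for Junb, 7 for Egr3 and 8 for Atf3. Over the brightest probes of the 9 measured genes, 36 pairs were correlated across 12 arrays, with p from 100000 permutations. After adjustment over the 36 pairs, 0 passed, and 4 had an unadjusted p under 0.05.

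Egr1 and Egr3 gave Pearson r = 0.734 (permutation p = 0.00745, adjusted p = 0.159) and Spearman rho = 0.720 (permutation p = 0.0109). Without WT 3 and AromhumH 1, the arrays farthest from the median, r was 0.607 (permutation p = 0.0625). Centred on group means, it was 0.745 (within-group exact permutation p = 0.00969, adjusted p = 0.349). The relation of Egr1 and Egr3 thus had a similar size within groups but did not pass adjustment.

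Egr1 and Fos gave r = 0.674 (permutation p = 0.0155, adjusted p = 0.187) and rho = 0.532 (permutation p = 0.0790), with r = 0.769 after centring (exact permutation p = 0.0402). Without WT 3 and AromhumH 1, r was 0.505 (permutation p = 0.134), so it rested in part on those arrays. Among the heat shock genes, Hspa1a and Dnajb1 gave r = 0.643 (permutation p = 0.0248, adjusted p = 0.223) and rho = 0.545 (permutation p = 0.0708). After centring, r was 0.663 (exact permutation p = 0.0409), and without AromhumH 4 and AromhumL 4 it was 0.652 (permutation p = 0.0454).

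Egr3 probe 1 and Hspa1b probe 1 ran in opposite directions, with r = −0.733 (permutation p = 0.00882, adjusted p = 0.159) and rho = −0.706 (permutation p = 0.0129). Hspa1b probe 1 was above background on 2 WT, 0 AromhumL and 4 AromhumH arrays, and was kept only through AromhumH. Its correlations with Egr3 therefore include arrays at background. The permutation also shuffled arrays across groups, so its p cannot separate a relation of the genes from the group differences of both probes. Without WT 1 and AromhumL 3, r was again −0.733 (permutation p = 0.0209). Centred on group means it was −0.43 (exact permutation p = 0.388), so the relation was not shown within groups.

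The genes with a tested probe that followed the brightest probe of a member most closely over the 12 arrays are given as a description. Each gene is represented by its probe of highest Pearson's r, which favours genes with several probes, and no test was made. For Egr3 they were Naa16 (r = 0.948), Plekhb2 (0.942), Zfp36 (0.940), Usp3 (0.934) and Dennd2c (0.932). Zfp36 is itself an immediate early gene, whose product destabilises mRNAs. For Hspa1b probe 1 they were Csrp3 (r = 0.959), a muscle LIM protein gene, then Ctse (0.942), Adgra2 (0.936), CYTB (0.933) and Anxa1 (0.933). Hspa1b probe 1 itself was above background on 6 of 12 arrays, 0 of them AromhumL, and was kept only through AromhumH. Its r values therefore include arrays at background and the higher level in AromhumH. For Fos the closest were Tmem87a (r = 0.837), Ints14 (0.837), Sepsecs (0.834), Plcd4 (0.816) and Fgd5 (0.806).

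Other genes of the same programmes were described from 6 lists holding 114 genes, of which 95 were measured, each by its brightest probe. In AromhumH versus WT, 0 of 95 passed the test and 54 had a change above 0. The list medians ran from −0.13 to 0.13. The leading genes of 3 lists were Ier3, an apoptosis regulator, at 0.82 (SE 0.211, adjusted p = 0.0806 by limma), Hspb7, the cardiovascular small heat shock protein, at 0.61 (adjusted p = 0.0965), and Serpinh1, the collagen chaperone, at 0.62 (adjusted p = 0.112; its other probe changed by 0.39). Cebpd at 0.41 (adjusted p = 0.206), Dnajc7 at 0.59 (adjusted p = 0.321) and Lonp1 at −0.16 (adjusted p = 0.633) led the remaining lists. Without WT 1 the value for Dnajc7 was 0.26. Sgk1, named here after its values were seen, was at −0.51 (adjusted p = 0.109), with every AromhumH array below every WT array.

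In AromhumL versus WT, 0 of 95 passed by limma and 51 changes were above 0, with list medians from −0.12 to 0.17. The leading genes of the 6 lists were Klf2 (0.51), Dusp4 (−0.74), Cdc37 (0.49), Hspb3 (−0.38), Clpp (0.25) and Hsp90b1 (−0.47), with adjusted p from 0.653 to 0.661. Dusp4 encodes a phosphatase that switches off MAP kinases, and Cdc37 the co-chaperone that brings kinases to HSP90.

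In AromhumH versus AromhumL, 2 of 95 passed, 2.11% against 4.74% of all probes. Hspa5, which encodes BiP, the HSP70 of the endoplasmic reticulum, read 6.47, 6.61, 6.19 and 5.99 in AromhumH, 4.83, 5.04, 5.27 and 5.47 in AromhumL, and 4.68, 5.16, 6.44 and 6.12 in WT (log2). WT 3 and WT 4 were at the AromhumH level and WT 1 and WT 2 at the AromhumL level. Hspa5 rose by 1.16 (SE 0.300, adjusted p = 0.0396 by limma). Its raw intensity was 124.6 to 181.8 in AromhumH. In AromhumL it was 81.6 to 99.7, and in WT 1 and WT 2 it was 85.1 and 100.9, near background.

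Sgk1, a steroid- and serum-induced kinase gene, read 11.41, 11.63, 11.50 and 11.34 in AromhumH, 12.04, 12.07, 12.27 and 12.14 in AromhumL, and 12.27, 12.17, 11.66 and 11.82 in WT (log2). Every AromhumH array lay below every AromhumL array, and WT was again split in the same pairs of arrays. Sgk1 fell by 0.66 (SE 0.146, adjusted p = 0.0239 by limma). With array brightness as a covariate, the values were 0.23 for Hspa5 (adjusted p = 0.822) and −0.44 for Sgk1 (adjusted p = 0.545). The adjusted p of Hspa5 was also 0.0786 on the processed values (change 0.30), 0.0675 without background correction (0.46), 0.0562 at an offset of 50 (0.71) and 0.144 without the detection filter, and that of Sgk1 was 0.0596 without the filter. The Hspa5 call was lost without AromhumH 1, 2 or 4 or any AromhumL array (adjusted p 0.0558 to 0.119), and that of Sgk1 without AromhumH 1, 2 or 4 or AromhumL 1 or 4 (adjusted p 0.0523 to 0.0782).

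The other leading genes of AromhumH versus AromhumL did not pass. They were Srf, the serum response factor, at −0.48 (adjusted p = 0.0737 by limma; its other probe changed by 0.25), Ptges3, the HSP90 co-chaperone p23, at 0.56 (adjusted p = 0.0781), Hspb7 at 0.45 (adjusted p = 0.110) and Clpp at −0.29 (adjusted p = 0.166). The list medians ran from −0.08 to 0.26, and 54 of 95 changes were above 0, beside 48.3% of all probes.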

How the data were processed

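The authors deposited, per the file headers, a non-normalized linear intensity and a detection p-value for each probe and array; a second table deposited by the authors holds processed log2 values, a scale read off the numbers because the labels give no transformation. Gene symbols came from the platform annotation: 34885 of 45281 probes had 1 symbol, 18 several and 10378 none, and 0 symbols needed updating.

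The intensities were background-corrected, using detection p-values, and quantile-normalized with neqc (offset 16) of limma 3.58.1 in R 4.3.3. Probes with a detection p below 0.05 on at least 4 of 12 arrays were kept, leaving 19004 probes. The 3 group means were estimated from all 12 arrays by lmFit and eBayes (9 residual and 6.68 prior degrees of freedom). P-values were adjusted over all probes by the Benjamini-Hochberg method. The median SE was 0.16, from the spread of each probe over 4 arrays a group. The fit was tested on simulated data. Exact and resampled permutation tests were written in Python 3.11.15, with ranks for Spearman's rho from SciPy 1.17.1.

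Groups and replicate numbers came from the sample titles; the descriptions give replicate 4 for every sample. Correlations of the deviations of same-numbered arrays were mixed. They ran from −0.26 to −0.00034 in AromhumH versus WT, 0.035 to 0.33 in AromhumL versus WT and −0.23 to 0.056 in AromhumH versus AromhumL. The numbers were not treated as pairs. There were 0 identical arrays, and within groups arrays correlated at 0.976 to 0.988. Chip and scan batches are not stated in the labels and were not tested.

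The members and lists were chosen with earlier results of these data known. Named related genes are, per list and comparison, up to 4 called genes, or otherwise the 1 with the smallest p. Alternatives were the processed values, no background correction, another offset, other detection filters, 1 probe a gene, another variance model, only the groups compared, a replicate block, array brightness, and leaving out each array.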

Additional observations from a re-analysis of the deposited data

Results flagged for a closer look

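Hsph1 in AromhumH replicate 1 stood apart from its group, at a log2 level of 9.824 against 10.41 to 10.49 on the other 3 arrays. The gap to the nearest array was 0.871 of the group's range, above the Dixon limit for 4 samples. Chance alone passes this limit in about 1 of 20 groups, and it was passed once in 33 tests of a tested member probe in a group. The same array was the lowest of all 12 for Egr1, Egr3 and Fos. Its mean log2 adipocyte marker level was 9.01, the highest of all 12, where the rest of its group read 5.77 to 6.27, and its erythroid level, 7.91, was the lowest of its group.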

How the results depend on the processing

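Called members in AromhumH versus WT fell from 1 to 0 on the deposited processed values, without background correction, at an offset of 50, without a detection filter (7 of 45281 probes called), with detection required on all 12 arrays (which dropped both Hspa1b probes), with only these groups fitted, with a replicate block and with array brightness as a covariate. The count stayed 1 with 1 probe a gene and with a trended, robust variance. With an array left out it was 0 to 1. In AromhumL versus WT it was 0 throughout by limma. In AromhumH versus AromhumL it was 0 with detection on all arrays and with array brightness (0 of 19004 probes called), 2 with 1 probe a gene and with only these groups (Hspa1b and Egr3), and 1 to 2 with an array left out. In AromhumH versus AromhumL every AromhumH array was the brighter, so brightness and group cannot be told apart. Beyond this and fewer probes or arrays, the cause was not tested.

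With the replicate number as a block, 0, 0 and 1 members were called in AromhumH versus WT, AromhumL versus WT and AromhumH versus AromhumL, and 109, 0 and 691 probes in all. The numbers only name the arrays.

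Some changes turned sign, all of them uncalled. In AromhumH versus WT, Atf3 was −0.0168 on the processed values, −0.0136 without background correction and −0.00767 at an offset of 50, and Egr1 was 0.026 with array brightness. In AromhumL versus WT, array brightness gave −0.076 for Egr1, −0.042 for Egr3 probe 1 (0.66 without it) and −0.15 for Junb. In AromhumH versus AromhumL, Egr3 probe 2 was 3.2e-05 on the processed values and 0.000167 without background correction, and Egr1 was 0.10 with array brightness, against −0.35.

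With an array left out, AromhumH versus WT ran from −0.37 to 0.30 for Atf3, −0.11 to 0.075 for Dnajb1, −0.34 to 0.12 for Egr1, −0.11 to 0.20 for Hspa1a, −0.10 to 0.085 for Hspa1b probe 2 and −0.032 to 0.47 for Junb. AromhumL versus WT ran from −0.51 to 0.17 for Atf3, −0.056 to 0.078 for Dnajb1, −0.31 to 0.020 for Fos and −0.11 to 0.21 for Junb. AromhumH versus AromhumL ran from −0.088 to 0.44 for Atf3, −0.11 to 0.054 for Dnajb1, −0.060 to 0.082 for Egr3 probe 2 and −0.080 to 0.42 for Junb. Over all member probes, leaving out an array kept direction and call in 342 of 396 fits and other settings in 295 of 315. With 4 arrays a group and probes of Hspa1b and Egr3 near background, smaller changes of these genes could not be resolved.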
